A study of Mus musculus with 6 samples.

Results

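Cathepsins are the proteases of the lysosome, and cystatins are the small proteins that block the cysteine cathepsins among them. The set described here holds 10 genes, taken by name from the 17459 gene symbols of the deposited count table: the inhibitors Cst3 (cystatin C) and Cstb (cystatin B), the cysteine cathepsins Ctsb, Ctsc, Ctsh, Ctsl, Ctss and Ctsz, the aspartic protease Ctsd and the serine carboxypeptidase Ctsa. All 10 were found and all 10 passed the filter on low counts, which left 13490 genes. The names were not chosen by a threshold on any value, but they were chosen with earlier results of these data known.

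RNA was sequenced from microglia, the brain's own macrophages, of male C57BL/6J mice aged 8 weeks. The conditional knockout mice (cKO, Mir137loxP/loxP;Tmem119-CreERT2, 3 libraries) carried Mir137 alleles flanked by loxP sites together with Tmem119-CreERT2, a Cre recombinase driven by the microglial gene Tmem119 and active after tamoxifen. Their controls (cWT, Mir137+/+;Tmem119-CreERT2, 3 libraries) carried the same Cre. Mice of both genotypes had daily tamoxifen for 7 days at an age of 7 to 8 weeks. The labels give 4 mice for the isolation and do not say how they fall into the libraries, so p-values measure the spread between these libraries, which may be technical.

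Cathepsins are made as inactive precursors, carried to the lysosome by mannose 6-phosphate receptors and switched on there by the acid and by one another. Microglia, like other macrophages, use them to break down what they engulf, and cathepsin S also trims the invariant chain that guards MHC class II molecules. Cystatin C is secreted and abundant in brain fluid, whereas cystatin B stays in the cytosol and nucleus, where it meets cathepsins that have leaked from lysosomes.

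Several sequences bear on what follows. The deleted microRNA is shown because a match to its seed marks a possible target among the 10 transcripts, with the seed (bases 2 to 8) in capitals, from RefSeq (GRCm38.p6, chr3:118433901-118433923, plus strand):
mmu-miR-137-3p: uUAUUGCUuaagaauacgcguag
The letters AGCAATA, which pair with that seed, were searched on the sense strand of the annotated 3' UTR of each principal transcript. Of the 10 genes, Ctsc alone held a match, 1 in a 3' UTR of 986 bases, starting at its base 77. It is shown with 10 bases on either side and the match in capitals:
Ctsc site: actttttcagAGCAATAtcagaagctt
A match of this kind stood in 8.8% of the 15514 genes with an annotated 3' UTR. With the TMM scaling described below, Ctsc had the smallest difference of the set between the genotypes. Scaled by total counts alone, Ctsc was called lower and Ctsb was not called. A link between the match and these values was not tested.

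Promoters (250 bases before to 50 after the start of transcription) were matched by symbol for 7 of the 10 genes, as 8 sequences, since Ctsa has 2. Those for Cstb, Ctsb and Ctsh were not matched. The letters CACGTG, the core of the element bound by TFEB, TFE3 and MITF in lysosomal genes (a palindrome, so the same on both strands), were found in Ctsa, Ctsd and Ctsl, and in 7.15% of all 32851 promoters of this length. The PU.1 letters GAGGAAGT, read on both strands as GAGGAAGT or ACTTCCTC, were found in Ctsc and Ctss, and in 3.2% of all promoters. The AP-1 letters TGACTCA or TGAGTCA were in none of the 7, and in 5.2% of all promoters. The promoters with CACGTG (for Ctsa, the one of its pair that holds it) and that of Ctss are printed because all 4 genes were called higher, with the matches in capitals (RefSeq, GRCm38.p6, 5' to 3' on the strand of the gene). The positions are chr7:142387778-142388077 minus for Ctsd, chr2:164833523-164833822 plus for Ctsa, chr13:64370471-64370770 minus for Ctsl and chr3:95526536-95526835 plus for Ctss.
Ctsd: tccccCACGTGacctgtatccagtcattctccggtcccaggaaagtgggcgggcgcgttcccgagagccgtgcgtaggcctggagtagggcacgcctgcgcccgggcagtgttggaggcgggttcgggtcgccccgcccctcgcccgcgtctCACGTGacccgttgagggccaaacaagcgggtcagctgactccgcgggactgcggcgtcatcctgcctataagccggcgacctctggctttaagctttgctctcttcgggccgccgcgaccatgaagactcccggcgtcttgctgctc
Ctsa: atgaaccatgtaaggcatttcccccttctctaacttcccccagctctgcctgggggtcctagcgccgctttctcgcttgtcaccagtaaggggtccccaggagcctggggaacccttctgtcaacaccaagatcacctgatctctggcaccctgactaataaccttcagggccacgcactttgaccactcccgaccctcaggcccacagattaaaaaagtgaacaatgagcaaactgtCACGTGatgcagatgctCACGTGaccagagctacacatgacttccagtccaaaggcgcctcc
Ctsl: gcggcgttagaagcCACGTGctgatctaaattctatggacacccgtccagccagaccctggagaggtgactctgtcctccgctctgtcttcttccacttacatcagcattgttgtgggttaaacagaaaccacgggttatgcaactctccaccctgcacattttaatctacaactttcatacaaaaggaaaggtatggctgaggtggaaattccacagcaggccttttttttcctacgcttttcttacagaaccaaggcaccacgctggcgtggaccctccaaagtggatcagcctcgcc
Ctss: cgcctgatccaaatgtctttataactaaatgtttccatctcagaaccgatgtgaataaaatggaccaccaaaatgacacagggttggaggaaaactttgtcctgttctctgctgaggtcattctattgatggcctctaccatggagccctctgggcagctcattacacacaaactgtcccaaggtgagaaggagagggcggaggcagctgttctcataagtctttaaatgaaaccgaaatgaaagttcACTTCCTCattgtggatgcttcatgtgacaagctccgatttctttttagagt
Counted from the RefSeq start of transcription of each window, the matches began at -245 and -98 in Ctsd, at -12 and 6 in Ctsa, and at -236 in Ctsl. The PU.1 letters began at -2 in Ctss and further out, at -151, in Ctsc. The starts used for Ctsd, Ctsl and Ctsa lie inside the GENCODE spans of these genes given below, which begin further upstream. The match at -98 in Ctsd, that in Ctsl and both in Ctsa therefore lie within the annotated genes. A match is a run of letters and not a measured binding site.

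The libraries held 12068698 to 15212806 estimated counts in cKO and 16503817 to 17482042 in cWT. The authors' deposited table lists Mir137 with a base mean of 0, so these values do not check its deletion. The 12 microglial markers were all present and summed to 36882 to 42399 CPM (counts normalised to library size, with the factors of TMM, edgeR's trimmed mean scaling) in cKO libraries and 38119 to 40523 CPM in cWT libraries, with 4 called higher and 6 lower. After correction of each library by length and GC offsets, explained with the length trend, 2 were called higher and 8 lower. Some lists of other cells had higher sums in cKO. The 6 choroid plexus and ependymal markers, led by Ttr, summed to 10436 to 14080 CPM in cKO and 2150 to 2423 CPM in cWT, and all 6 were called higher, also with the offsets. The 7 neutrophil markers summed to 10989 to 15600 CPM in cKO and 3784 to 4414 CPM in cWT, with 4 called higher and Elane lower, and with the offsets 1 higher and 3 lower. The 7 monocyte markers summed to 1078 to 1400 CPM in cKO and 585.7 to 664.9 CPM in cWT, with 4 called higher and 2 lower, and with the offsets 1 higher and 2 lower. Beside these counts, 35.6% of all genes tested were called higher and 36.5% lower (30.3% and 27.2% with the offsets). No marker of these lists was at 0 in all libraries. In bulk RNA, more cells of a type and more RNA per cell cannot be told apart.

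The comparison of cKO with cWT asks how the loss of miR-137 bears on the level of these transcripts. Of the 10 genes, 9 were higher in cKO and none was lower, at a Benjamini-Hochberg adjusted p under 0.05 in edgeR's quasi-likelihood test over all 13490 genes. At that threshold 35.6% of all genes were called higher, 36.5% lower, and 72.1% in either direction. The median log2 fold change was 1.35 over the 10 genes and -0.02 over all genes tested. In 6 of the 9 the change was at least 2-fold. Every cKO library lay above every cWT library for all 10 genes, as for 36.7% of all genes, while 37.9% had every cKO library below every cWT library. These directions are relative to TMM scaling. Scaling by total counts alone moved the median of all genes to -0.42, and on that scale Ctsc was called lower, at -0.21 (adjusted p = 0.0353), and Ctsb was not called, at 0.18 (adjusted p = 0.116).

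**Figure D1:**
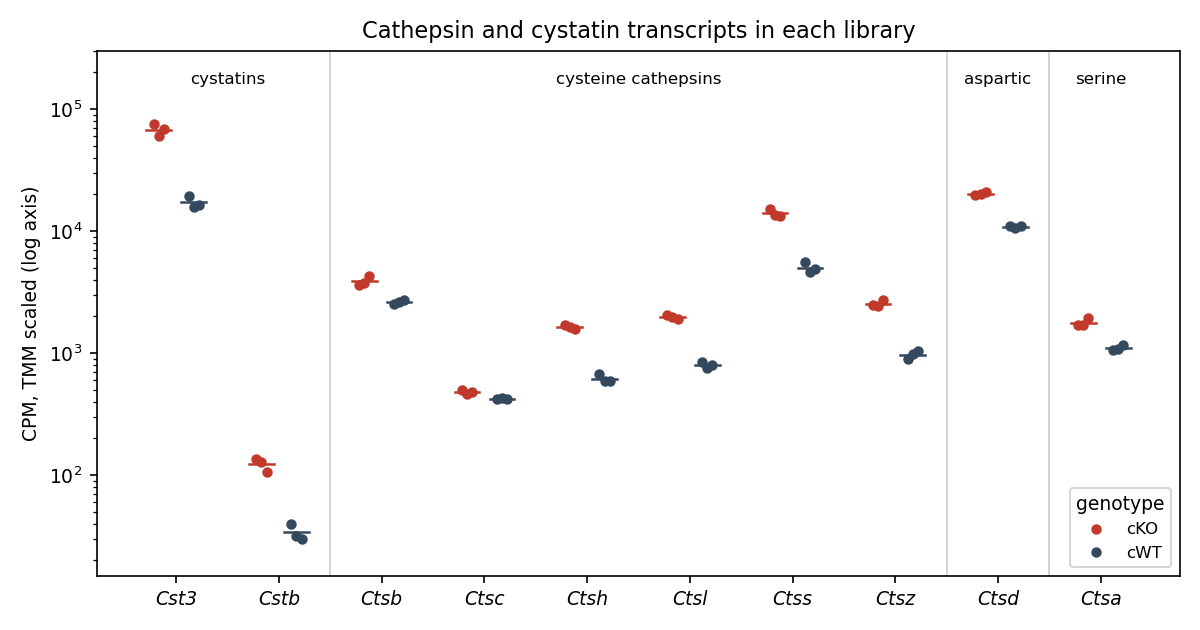
CPM with TMM scaling (log axis) of each of the 10 genes in each library, cKO in red on the left and cWT in dark blue on the right of each pair, with short lines at the means of 3 libraries. The cKO points lie above the cWT points for every gene, with the widest gaps for Cst3 and Cstb and the narrowest for Ctsc.

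The inhibitors had the highest fold changes of the set. Cst3 (chromosome 2, 148871722 to 148875692, GRCm38), which took more counts than any other gene in both genotypes, had 74992, 59620 and 67932 CPM in the cKO libraries and 19447, 15726 and 16248 CPM in the cWT libraries. The lowest cKO library thus stood far above the highest cWT library. The log2 fold change (± SE) came to 1.98 ± 0.14 (adjusted p = 7.387e-10), and 4.05% of all genes had a log2 fold change as high or higher. The means of Cst3 differed by 50374 CPM. The 6 choroid plexus and ependymal markers, all called higher, also with the offsets, summed to 10436 to 14080 CPM in cKO and 2150 to 2423 CPM in cWT. Cst3 is also made by choroid plexus and astrocytes. The 8 astrocyte markers summed to 587.6 to 810.5 CPM in cKO and 464.9 to 495.3 CPM in cWT, with 3 called higher (6 with the offsets) and none lower. Of all genes tested, 35.6% were called higher and 36.5% lower (30.3% and 27.2% with the offsets). A sum of chosen markers does not measure how much Cst3 RNA such cells bring. The part of choroid plexus and astrocytes in the change of Cst3 was not tested.

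Cstb (chromosome 10, 78425669 to 78427622) was far less abundant. It had 136.7, 126.9 and 107.0 CPM in cKO and 39.84, 31.89 and 30.19 CPM in cWT, with a log2 fold change (± SE) of 1.86 ± 0.12 (adjusted p = 2.214e-10). The 3 cKO libraries were all more than 2-fold above the highest cWT library. The count of Cst3 over that of Cstb was 548.7, 469.8 and 635.1 in cKO libraries and 488.1, 493.1 and 538.1 in cWT libraries, and these ranges overlap.

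Among the cysteine cathepsins, the endopeptidase gene Ctss (chromosome 3, 95526786 to 95556403) was the most abundant. It had 15219, 13418 and 13342 CPM in cKO and 5537, 4625 and 4853 CPM in cWT. The groups were well apart, with a log2 fold change (± SE) of 1.48 ± 0.12 (adjusted p = 4.539e-09). Ctsz, a carboxypeptidase (chromosome 2, 174427493 to 174439039), had 2456, 2432 and 2737 CPM in cKO and 899.0, 985.5 and 1033 CPM in cWT, with a log2 fold change (± SE) of 1.39 ± 0.11 (adjusted p = 2.15e-09). Ctsh, mainly an aminopeptidase (chromosome 9, 90054152 to 90076089), had 1696, 1628 and 1588 CPM in cKO and 672.7, 593.7 and 586.7 CPM in cWT, with a log2 fold change (± SE) of 1.41 ± 0.10 (adjusted p = 1.048e-09). Ctsl, an endopeptidase (chromosome 13, 64359337 to 64370890), had 2038, 1991 and 1905 CPM in cKO and 849.4, 747.9 and 800.1 CPM in cWT, with a log2 fold change (± SE) of 1.31 ± 0.10 (adjusted p = 2.541e-09). These 4 genes thus rose by similar amounts, with no overlap between the genotypes in any of them.

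The other 2 cysteine cathepsins moved less. Ctsb, an endopeptidase that also trims dipeptides from chain ends (chromosome 14, 63122462 to 63145923), had 3643, 3775 and 4308 CPM in cKO and 2538, 2598 and 2723 CPM in cWT. The change came to 0.58 ± 0.11 (log2 ± SE, adjusted p = 0.0001304). Ctsc, the dipeptidyl peptidase that activates granule serine proteases (chromosome 7, 88278085 to 88310888), had 495.3, 460.7 and 483.4 CPM in cKO and 422.4, 425.4 and 422.4 CPM in cWT. The groups did not overlap, but the log2 fold change of 0.18 (SE 0.09) was not called (adjusted p = 0.0864). In the authors' deposited table, Ctsc has a log2 fold change of 0.19 with an adjusted p of 0.0402. Its call depends on the tool and on other settings, such as the filter and the replicate block given at the end. The other 9 genes have log2 fold changes from 0.58 to 1.98 there.

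The 2 proteases of other classes also rose. Ctsd, the aspartic endopeptidase (chromosome 7, 142375911 to 142388038), took the second highest counts of all genes in both genotypes, with 19713, 20033 and 21049 CPM in cKO and 10991, 10490 and 11030 CPM in cWT. The change came to 0.90 ± 0.12 (log2 ± SE, adjusted p = 1.394e-06). Ctsa, a serine carboxypeptidase that also shields beta-galactosidase and neuraminidase in the lysosome (chromosome 2, 164832873 to 164841032), had 1690, 1693 and 1924 CPM in cKO and 1055, 1077 and 1162 CPM in cWT, with a log2 fold change (± SE) of 0.69 ± 0.10 (adjusted p = 1.093e-05). Each cKO library lay above each cWT library for both.

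Ratios of counts within a library need no scaling between libraries. Cst3 over Ctsd was 3.804, 2.976 and 3.227 in cKO and 1.769, 1.499 and 1.473 in cWT. Ctss over Ctsb was 4.178, 3.555 and 3.097 in cKO and 2.181, 1.780 and 1.783 in cWT. Ctsz over Ctsb was 0.6742, 0.6442 and 0.6355 in cKO and 0.3542, 0.3793 and 0.3794 in cWT. None of these 3 pairs of ranges overlapped, so the counts of these members changed unequally whatever the scaling between libraries. They compare transcripts of unequal length, and the next values show how far fold change went with length.

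Fold change in the whole table followed transcript length, with a Spearman correlation across genes of -0.71 over 12983 tested genes with an annotated length. Over the 10 genes the same correlation was -0.94, a description of 10 genes that share the same 6 libraries. Cstb (603 bases) and Cst3 (860 bases) had the shortest transcripts and the highest fold changes, and Ctsb (4743 bases) and Ctsa (3646 bases) had the longest and among the lowest. Genes were sorted by length into 10 bins of equal size. The bin that holds Cst3 and Cstb (142 to 1178 bases) had a median log2 fold change of 1.57, and 85% of its genes were called higher. The bin of Ctss, Ctsz and Ctsh (1178 to 1632 bases) had a median of 0.99, and that of Ctsb (4023 to 4795 bases) one of -0.66. All 10 members stood above the median of their bin, by 0.11 for Ctsc at the least, 0.29 for Cstb and 0.41 for Cst3, and by 1.08 for Ctsa and 1.24 for Ctsb at the most.

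**Figure D2:**
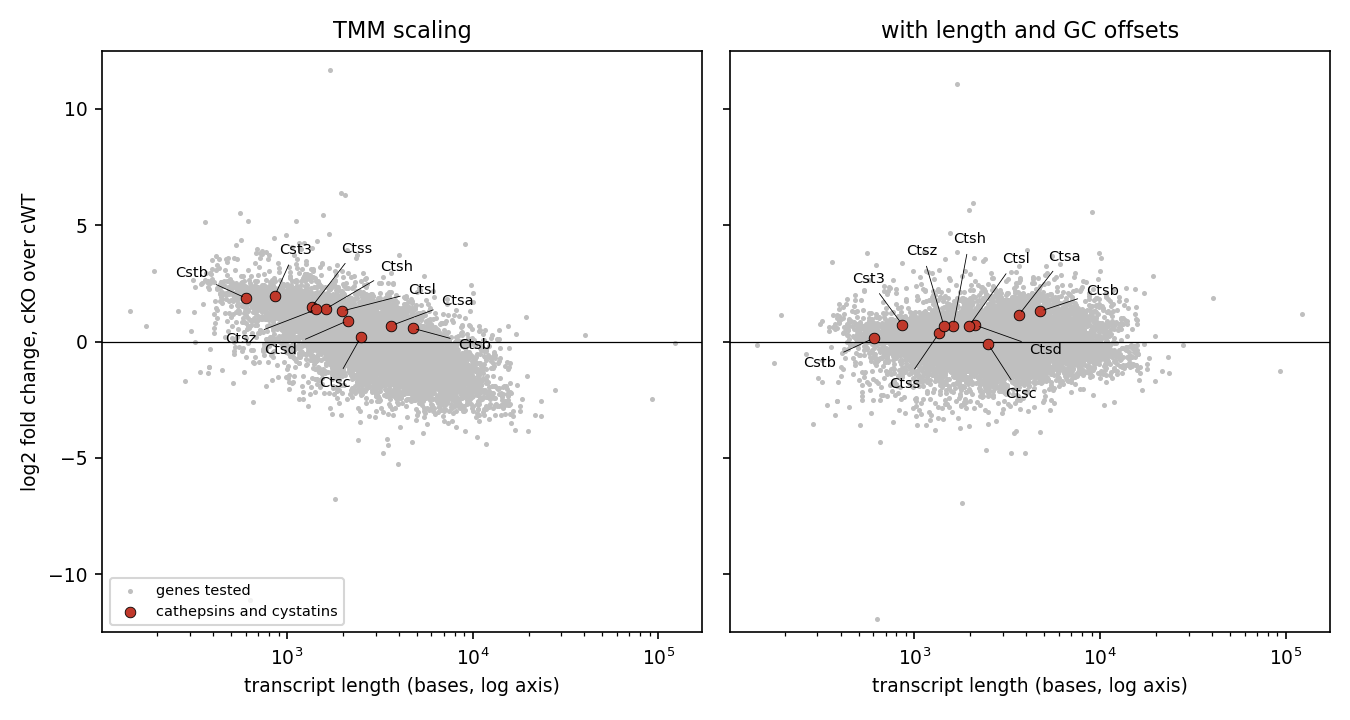
Log2 fold change of cKO over cWT against annotated transcript length (bases, log axis) for all tested genes with a length (grey) and the 10 members (red), with TMM scaling on the left and with offsets for length and GC content on the right. Members fall with length on the left together with the cloud of all genes (Spearman -0.71), and on the right the cloud is nearly level (Spearman -0.082) with Ctsb and Ctsa as the highest members.

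The test was therefore repeated with offsets that take out of each library the part of the deviation that length and GC content fit. Then 8 of the 10 genes were called higher and none lower, while 30.3% of 12983 genes were called higher and 27.2% lower, 57.5% in either direction. The median of the 10 genes was 0.68, and 0.01 over all genes. The order changed. Ctsb stood highest at 1.30 ± 0.09 (SE, adjusted p = 1.252e-11), followed by Ctsa at 1.15 ± 0.08 (SE, adjusted p = 1.932e-11). Cst3, Ctsd, Ctsl, Ctsz and Ctsh lay close together, between 0.65 and 0.72, and Ctss stood at 0.35 ± 0.09 (SE, adjusted p = 0.001177). Cstb, at 0.14 ± 0.08 (SE, adjusted p = 0.136), was not called, and Ctsc turned to -0.11 (SE 0.08, adjusted p = 0.216). The size of the increase and the order of the members thus depend on the length term, while 8 members were called higher with and without it. Cstb kept its direction without a call, and Ctsc alone reversed. These offset values hold only as far as the annotated transcript is the one expressed. Ctsl has a pair of equally ranked principal transcripts, of 1971 and 6168 bases, and with the longer one, tried after seeing the data, it stood at 2.25 in place of 0.68.

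**Figure D3:**
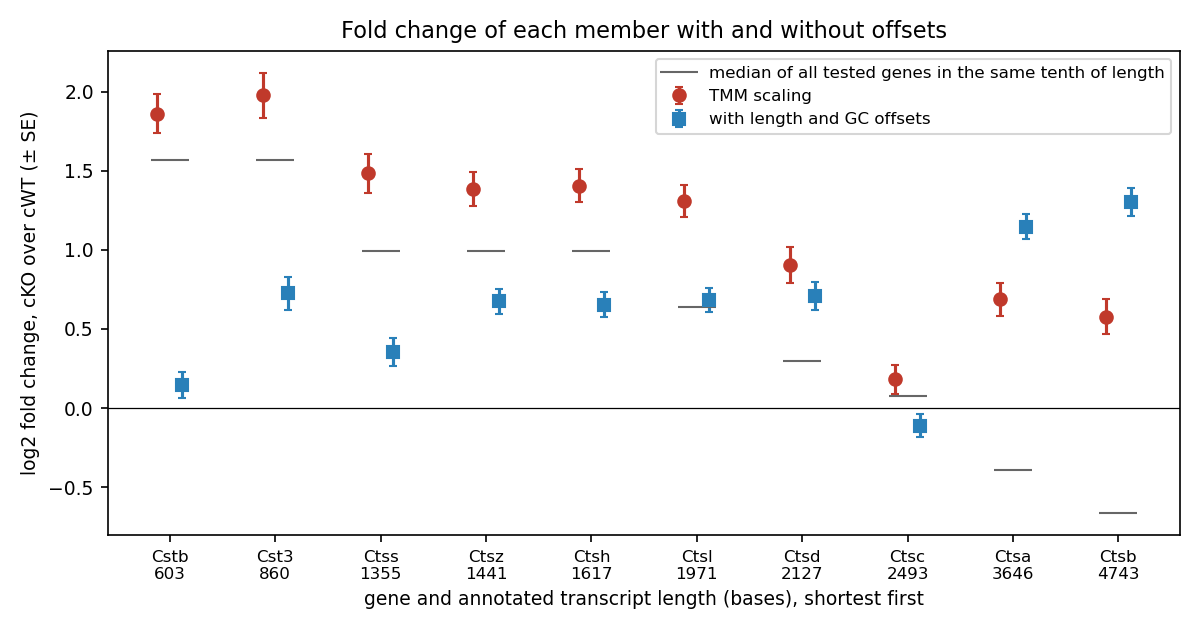
Log2 fold change of cKO over cWT (± SE, 3 libraries per genotype) of each member, ordered by annotated transcript length in bases, with TMM scaling (red circles) and with length and GC offsets (blue squares); grey dashes mark the median of all tested genes in the same length bin. The red circles are highest for the shortest transcripts, Cstb (1.86) and Cst3 (1.98), and lowest for Ctsc (0.18) and Ctsb (0.58), and every circle stands above its dash.

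Levels of different genes were compared per length, as counts over annotated transcript length scaled to the same sum in each library over all genes with a length. On that scale, in both genotypes, Cst3 stood first, at 103286 ± 7228 in cKO and 52819 ± 4787 in cWT (SD, n = 3 each). Ctss averaged 13602 ± 403 in cKO and 9792 ± 662 in cWT. Ctsd averaged 12586 ± 903 in cKO and 13525 ± 264 in cWT. In cWT Ctsd thus stood above Ctss in each library, while in cKO the ranges of the 2 genes overlapped. Ctsz followed at 2330 ± 211 in cKO and 1794 ± 162 in cWT. Ctsb, Ctsh and Ctsl all lay between 1013 and 1467 on average in both genotypes. Ctsh and Ctsl were neighbours whose ranges overlapped in both genotypes. Ctsa averaged 641 ± 64.9 in cKO and 800 ± 51.7 in cWT. Cstb, at 270 ± 27.8 in cKO and 149 ± 19.1 in cWT, and Ctsc, at 254 ± 6.12 in cKO and 451 ± 13.6 in cWT, were the lowest. On this scale, which is shared out among all genes, the means of Ctsa, Ctsb, Ctsc and Ctsd were lower in cKO, opposite in direction to their TMM-scaled CPM.

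The make-up of the family on this scale depended on the length trend. As counted, Cst3 made up 75.5% ± 1.67 of the members' summed per-length level in cKO and 63.7% ± 1.82 in cWT (SD, n = 3 each), while Ctsd made up 9.23% ± 0.94 in cKO and 16.4% ± 1.17 in cWT. Among the cysteine cathepsins alone, Ctss made up 68.2% ± 1.88 in cKO and 62.8% ± 2.17 in cWT, Ctsb 5.47% ± 0.667 in cKO and 9.42% ± 0.761 in cWT, and Ctsc 1.27% ± 0.034 in cKO and 2.90% ± 0.182 in cWT. Ctsh, Ctsl and Ctsz took shares that differed by a factor of 0.963 to 1.03 between the genotypes. With levels adjusted by the offsets, a setting chosen after seeing the data, Cst3 made up 70.9% ± 1.73 in cKO and 69.0% ± 1.48 in cWT, and Ctsd 12.5% ± 0.924 in cKO and 12.3% ± 0.418 in cWT, with overlapping libraries for both. The shares of Ctss and Ctsb turned round. Ctss made up 62.4% ± 0.764 of the cysteine cathepsins in cKO and 68.7% ± 0.926 in cWT, and Ctsb 9.48% ± 0.865 in cKO and 5.42% ± 0.214 in cWT. Ctsc, at 1.56% ± 0.069 in cKO and 2.37% ± 0.163 in cWT, had the lower share in cKO on both scales. With the offsets, the mean shares of Ctsh, Ctsl and Ctsz in cKO were 1.12, 1.14 and 1.13 times those in cWT. Their libraries then overlapped between the genotypes for Ctsh alone. The per-length level of Cst3 plus Cstb over that of the 6 cysteine cathepsins was 5.469, 4.767 and 5.350 in cKO libraries and 3.622, 3.297 and 3.260 in cWT libraries. The cKO mean was 1.53 times the cWT mean. With the adjusted levels this ratio was 5.008, 4.324 and 4.332 in cKO and 4.244, 3.654 and 3.756 in cWT. The genotypes still did not overlap, but the ratio of means was 1.17. These are ratios of transcripts and not of active protein, and a score over chosen genes is given no p. The 10 genes together held 9.95% ± 0.47 of all counts in cKO and 4.53% ± 0.266 in cWT, and without Cst3 4.32% ± 0.042 in cKO and 2.62% ± 0.058 in cWT.

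**Figure D4:**
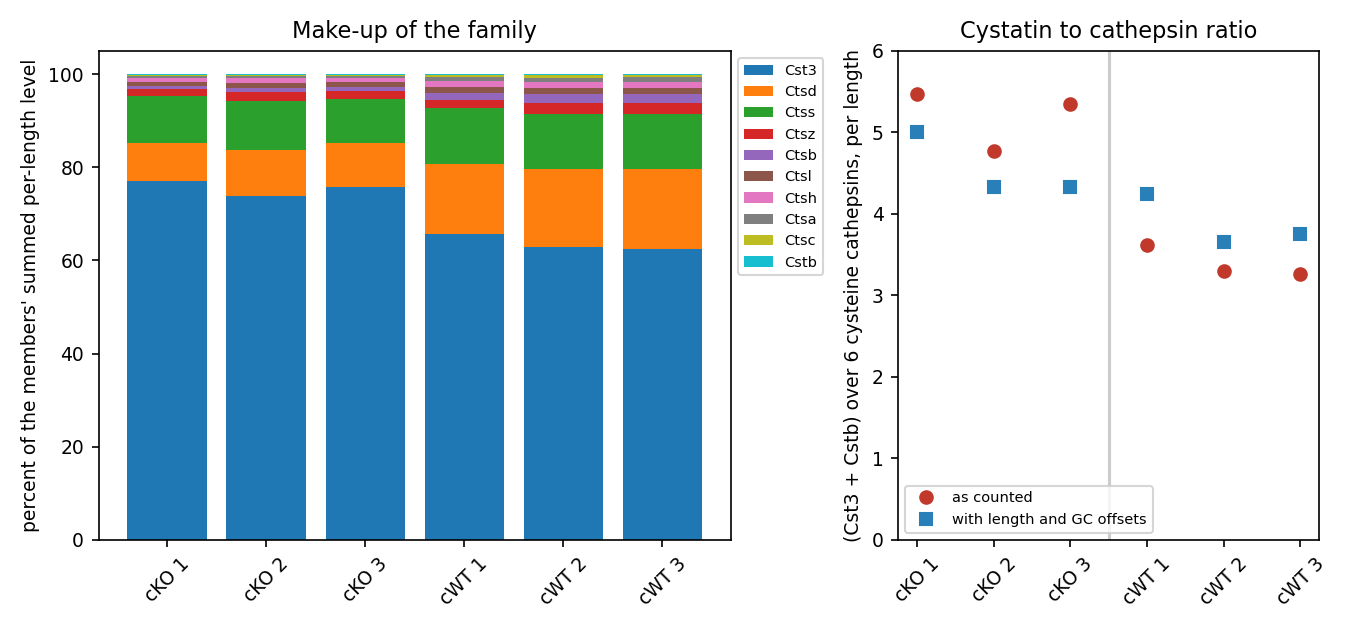
Left, share of each member in the family's summed per-length level (percent, stacked bars from 0) in each library, cKO first. Right, per-length level of Cst3 plus Cstb over that of the 6 cysteine cathepsins in each library, as counted (red) and with length and GC offsets (blue). Cst3 takes 73.8% to 77.1% in cKO and 62.4% to 65.7% in cWT, and the red points lie between 4.77 and 5.47 in cKO, above 3.26 to 3.62 in cWT. The shares drawn are as counted, and with the offsets those of Cst3 overlap between the genotypes (69.4% to 72.8% in cKO and 67.9% to 70.7% in cWT).

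Further genes of the pathway came from lists chosen by role. Of 17 other cathepsins and related proteins, 7 were in the table and tested, and of these 3 were called higher and none lower (median log2 fold change 0.72), beside 35.6% of all genes called higher. With the offsets 3 were higher and 1 lower, with a median of 0.18, beside 30.3% and 27.2% of all genes. Ctsf, a lysosomal cysteine cathepsin, averaged 400 ± 43.6 CPM in cKO and 228 ± 13.1 CPM in cWT, with a log2 fold change (± SE) of 0.81 ± 0.10 (adjusted p = 9.795e-07), and stood at 0.53 with the offsets. Tinagl1, a secreted relative of the cathepsins without protease activity, rose by 0.93 (0.73 with the offsets). Ctsg, a serine protease of neutrophil granules, rose by 1.34, with 33.78, 22.49 and 15.49 CPM in cKO and 11.33, 9.112 and 7.688 CPM in cWT, and was not called with the offsets, at 0.02. Its level went with that of the neutrophil markers, highest in cKO replicate 1 and lowest in cWT replicate 3, and their part in it was not tested. The other 4, Ctse, Ctsk, Ctso and Ctsw, were not called on the TMM scale and are named after their values were seen. With the offsets Ctso was called higher (0.18, adjusted p = 0.0488) and Ctsw lower (-1.18, adjusted p = 0.0123). Ctsw was at a low level, with 1.68 ± 0.87 CPM in cKO and 1.91 ± 0.55 CPM in cWT. Its log2 fold change on the TMM scale was -0.16 (adjusted p = 0.741). The CPM of the genotypes overlapped for both Ctso and Ctsw.

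Of 28 cystatins and related inhibitors outside the set, 17 were in the table and 10 were tested. Of these, 9 were called higher and none lower, with a median of 2.23 (6 higher and a median of 0.90 with the offsets). Among all genes tested, 35.6% were called higher and 36.5% lower (30.3% and 27.2% with the offsets). A gene at low level passes the filter more readily where it is high. The median length of the 10 was 802.5 bases, and 85% of all genes in the shortest length bin (142 to 1178 bases) were called higher. Serpinb6a, Serpina3g, Serpinb1a and Serpinb9, with 1547 to 3397 bases, are longer than that bin. The stefin A genes, cystatins known in mouse from myeloid cells, had the largest changes. Stfa2l1 had 24.05, 23.02 and 16.32 CPM in cKO and 1.862, 2.406 and 2.225 CPM in cWT, with a log2 fold change (± SE) of 3.28 ± 0.20 (adjusted p = 1.047e-10). Stfa1 had 9.054, 10.27 and 4.859 CPM in cKO and 0.9575, 0.8191 and 1.012 CPM in cWT, a log2 fold change of 3.10 and an SE of 0.32. The lowest cKO library of each lay well above the highest cWT library, and with the offsets they stood at 1.18 and 1.19, both still called. Stefin A genes are close copies of one another, so the counts of single copies are uncertain. The 7 neutrophil markers were mixed. S100a8 (log2 fold change 2.05), S100a9 (2.01), Retnlg (2.23) and Camp (0.99) were called higher, Elane (-0.44) lower, and Ngp (-0.04) and Mpo (-1.34) were not called. With the offsets, Retnlg alone was higher (0.42), and Camp (-0.49), Ngp (-1.17) and Elane (-1.57) were lower. The part of neutrophils in these changes was not tested.

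Serpins and cystatin F had smaller fold changes than these stefins. Serpinb6a, a serpin that inhibits serine proteases and whose human counterpart blocks cathepsin G, rose by 1.34 (0.45 with the offsets). Serpinb1a, an inhibitor of neutrophil proteases, rose by 0.70 but its offset value was -0.0014 (adjusted p = 0.991). Cst7, cystatin F, an inhibitor of cathepsin C that disease-associated microglia express, is named after its values were seen. It had 17.04, 13.19 and 16.63 CPM in cKO and 5.958, 7.218 and 10.06 CPM in cWT, with a log2 fold change (± SE) of 1.01 ± 0.19 (adjusted p = 0.0001108). Its transcript has 986 bases, and its offset value was -0.35, not called (adjusted p = 0.109). Cst3, with 860 bases, was called on both scales, though the difference between the 2 genes was not tested.

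Of 9 genes that activate cathepsins or work with them, 4 rose and 3 fell (3 and 3 with the offsets). The shares over all genes were 35.6% higher and 36.5% lower (30.3% and 27.2% with the offsets). Lgmn, the legumain protease that cleaves cathepsin precursors into their mature chains, had 4968, 4848 and 5660 CPM in cKO and 3070, 3293 and 3483 CPM in cWT, with a log2 fold change (± SE) of 0.65 ± 0.11 (adjusted p = 4.761e-05; 0.22 with the offsets). Neu1, the neuraminidase that Ctsa protects, rose by 0.84 (0.91 with the offsets). Pycard, the inflammasome adaptor, rose by 1.75 (2.05 with the offsets, for an annotated length of 3800 bases). Ifi30, a lysosomal thiol reductase, rose by 0.57 but was called lower at an offset value of -0.73. Cd74, the invariant chain cut by cathepsin S, fell to 206 ± 20.1 CPM in cKO, against 468 ± 27.1 CPM in cWT (log2 fold change -1.18, adjusted p = 7.345e-09), and stood at -1.95 with the offsets. Grn, the lysosomal protein progranulin, fell to 955 ± 130 CPM in cKO, against 1422 ± 146 CPM in cWT (-0.57, adjusted p = 0.0002805), with an offset value of -0.62. Galns, a sulfatase known to bind the Ctsa complex, had a log2 fold change of -0.30 (adjusted p = 0.0492), and 4 of the 6 fits that leave out 1 library did not call it. Ctss and its substrate Cd74 thus moved in opposite directions on both scales.

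Of 17 genes of mannose 6-phosphate sorting and its receptors, 5 rose and 7 fell (6 and 2 with the offsets), with a median of -0.08. Over all genes, 35.6% were called higher and 36.5% lower (30.3% and 27.2% with the offsets). M6pr, the small mannose 6-phosphate receptor, rose by 0.56 (0.40 with the offsets). Vps29, a retromer subunit that returns receptors from endosomes, rose to 128 ± 11.3 CPM in cKO, against 45.2 ± 2.97 CPM in cWT, and was called at 1.30 with the offsets. Gnptg, a subunit of the enzyme that adds the mannose 6-phosphate tag, rose by 1.28 and Ap1s1, an adaptor subunit, by 0.78, neither called with the offsets. Lrp1, an endocytic receptor of 14888 bases, fell by 3.13 on the log2 scale, with an offset value of -1.06. Igf2r, the large mannose 6-phosphate receptor, fell by 1.67, Ap1g1 by 1.08 and Gnptab, the catalytic partner of Gnptg, by 0.99 on the log2 scale. None of these last 3 was called with the offsets. Sort1, a sorting receptor named after its values were seen, was called lower at -0.83 and, with the offsets, higher at 0.42.

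Of 10 regulators of lysosomal genes, 3 were called higher and 4 lower (1 and 2 with the offsets), with a median of -0.14. Beside these stand 35.6% of all genes called higher and 36.5% lower (30.3% and 27.2% with the offsets). Tfeb averaged 50.4 ± 9.03 CPM in cKO and 58.1 ± 4.48 CPM in cWT (log2 fold change -0.20, adjusted p = 0.140). Tfe3 fell to 69.0 ± 10.3 CPM in cKO, against 144 ± 11.8 CPM in cWT, a log2 fold change of -1.06 (adjusted p = 1.101e-07; -0.62 with the offsets). Mitf fell by 0.75 on the log2 scale and was not called with the offsets, at -0.15. Tfec, another member of that family, rose by 1.36 (0.58 with the offsets) to 7.91 ± 2.31 CPM in cKO, against 3.06 ± 0.86 CPM in cWT. Within this family Tfe3 was thus lower and Tfec higher on both scales, and Tfeb was not called on either. Ctsd, Ctsa and Ctsl, whose promoters printed above hold CACGTG, were called higher. Of the genes whose searched promoters lack it, Cst3, Ctss and Ctsz were called higher and Ctsc was not called. A link between these regulators and the members was not tested.

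The calls of Spi1 and Mcoln1 did not hold in every fit that left out 1 library. Spi1, which encodes PU.1, averaged 343 ± 70.9 CPM in cKO and 281 ± 25.6 CPM in cWT, a log2 fold change of 0.29 (adjusted p = 0.0452) that was not called without cKO replicate 3 (0.12, adjusted p = 0.242), without cWT replicate 1 (adjusted p = 0.181) or without cWT replicate 2 (adjusted p = 0.105). The lysosomal channel gene Mcoln1 rose by 0.35 (adjusted p = 0.0253), not called without cKO replicate 3 (0.19, adjusted p = 0.150) or cWT replicate 1 (0.27, adjusted p = 0.124). Leaving out cKO replicate 3 moved the Tfeb value to -0.34, which was called (adjusted p = 0.006294). The calcineurin subunit gene Ppp3cb fell by 0.61 and Fnip1, a partner of folliculin, by 0.66 on the log2 scale. The folliculin gene Flcn had a log2 fold change of -0.07 and the repressor gene Zkscan3 one of 0.10, neither called. With the offsets Ppp3cb was still lower (-0.45) and Fnip1 was not called (0.17).

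Over the 6 libraries, the 5 genes whose centred log2 CPM ran closest to that of Cst3, among 2946 others whose average log2 CPM reached 6, were Prdx4, Tyrobp, Fam173a, Rpl18 and Rpl12. Their root mean square difference from Cst3 was 0.039 to 0.070 log2 units and their log2 fold changes were 2.01 to 2.06. Since these genes were picked by that closeness, fold changes near that of Cst3 follow from the choice. Their transcripts were short as well, with 564 to 1321 bases. With the offsets they stood between 0.43 and 1.25, and Cst3 at 0.72.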

How the data were processed

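Gene expression was measured by RNA sequencing of microglia in 3 cKO and 3 cWT libraries, grouped by sample titles. The authors deposited unscaled estimated counts per symbol. The submitters' processing notes name STAR 2.7.9a, RSEM, DESeq2, GRCm38 and mm10, without saying what each was used for. For the annotation and the use of strand in counting, a statement was not given in the sources used here. Per library, 5.5% to 5.85% of values had decimals, and all were rounded for testing. The authors' deposited comparison gives a base mean, a signal scaled over libraries, per the file headers. It also gives log2 fold changes with standard errors, a Wald score, p-values and adjusted p-values, per the file headers.

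Genes were tested with edgeR 4.0.16 in R 4.3.3 (quasi-likelihood, two-sided, TMM, robust dispersion, genotype as the only term) after filterByExpr with a minimum count of 10, which set aside 3969 genes, and p-values were adjusted over all 13490 tested. CPM carry the TMM factors. Standard errors were derived from the test statistic. Offsets were natural splines (6 degrees of freedom each) of log transcript length and GC content, fitted per library to the deviation of log2 CPM (prior count 2) from each gene's mean. Lengths, 3' UTRs and coordinates came from GENCODE M21 (GRCm38), with the principal transcript of best support, matched for 16753 of 17459 symbols and for 96.2% of genes tested. On counts simulated for this comparison (13312 genes) the test recovered 84.8% of changes of 1 and 100% of changes of 2 on the log2 scale, with 15 false calls. In that simulation a small part of the genes changed, evenly up and down, and without a length trend. These rates were not shown to hold for the real counts, where 72.1% of genes were called and fold change followed length. Pairs of libraries within a genotype had a chi-square of 3.75 to 18.2 per degree of freedom, above sampling noise, so none was treated as a second copy of another; this does not show that they came from separate mice.

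Alternatives were DESeq2 1.42.0, limma-voom (limma 3.58.1), other scalings and filters, offsets, a replicate block and leaving out each library. The members, lists, motifs and tests were chosen with earlier results of these data known. Named pathway genes were the called members of each list with an average log2 CPM of 2 or more, at most 4 with the smallest p in each direction, and every tested regulator. Protein sequences were not used here. The labels name no molecular identifiers, so depth speaks to counting error only.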

Additional observations from a re-analysis of the deposited data

How the results depend on the processing

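Of the 10 members, Cst3, Ctsa, Ctsd, Ctsh, Ctsl, Ctss and Ctsz kept direction and call in all 18 alternatives run, and no member changed its call when 1 library was left out. Ctsb lost its call with library size alone. Cstb lost it with each of the 4 length offsets, at 0.0435 to 0.23. Ctsc was called higher with the DESeq2 test (adjusted p = 0.0274), with a filter of 5 CPM in 3 libraries (0.0473) and with the replicate block (0.0182), and reversed to -0.21 with library size alone, to -0.11 with the length and GC offsets (-0.11 with the block added) and to -0.17 with the longest principal transcript, an alternative chosen after seeing the data. Library size alone therefore gave 1 member called lower, and 3331 higher against 6742 lower calls over all genes, compared with 4803 and 4926. The cause of these changes was not tested.

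The members' median of 1.35 was 1.37 with DESeq2 size factors and with the DESeq2 test, 0.95 with library size alone, 1.30 with no filter, 0.68 with length and GC offsets, 0.575 with the length offset alone, 0.68 with offsets and block, and 0.65 with the longest transcript. Leaving out 1 library gave 1.31 to 1.38. The cystatin to cathepsin ratio of means, 1.53, was 1.66 with coding lengths and 1.17 with the offsets. The share of counts held by the members in cKO was 2.20 times that in cWT, and 1.65 times without Cst3. The per-length shares in cKO over cWT were 1.19 as counted and 1.03 with the offsets for Cst3, 0.564 and 1.02 for Ctsd, 1.09 and 0.908 for Ctss, 0.58 and 1.75 for Ctsb, and 0.44 and 0.657 for Ctsc. Other cystatins called were 4 in place of 9 with the filter of 5 CPM, which tested fewer of them.

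Alternatives were run for the members, the pathway genes named by the rule, and Cst7. Among these the length and GC offsets reversed Ifi30 (-0.73), Serpinb1a (-0.0014), Ap1s1 (-0.0803), Ap1g1 (0.0423), Zkscan3 (-0.0584), Flcn (0.0457), Fnip1 (0.17) and Cst7 (-0.35). Pathway genes outside these, Sort1 for one, also changed sign. With the length offset alone they reversed for Ifi30 (-0.73), Ap1s1 (-0.18), Ap1g1 (0.12), Mitf (0.0089), Mcoln1 (-0.0199), Spi1 (-0.10), Fnip1 (0.43) and Cst7 (-0.29). Library size alone reversed Zkscan3 (-0.30), Mcoln1 (-0.0471) and Spi1 (-0.11).

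Replicate numbers are shared by the genotypes, but same-numbered libraries deviated together only weakly (correlations 0.0985, 0.0335 and 0.0882), so they share a number and no stated pairing, although each library correlated best with its own number. The replicate block gave 9911 calls in place of 9729, and 7533 with the offsets, where Ctsg (-0.0064), Serpinb1a (-0.0015), Ifi30 (-0.73), Ap1s1 (-0.0803), Ap1g1 (0.043), Zkscan3 (-0.0585), Flcn (0.0426), Fnip1 (0.17) and Cst7 (-0.33) also reversed.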
